A study of Mus musculus with 6 samples.

Results

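The cytosolic HSP70, HSP90 and HSP110 chaperones were examined as 8 mouse genes, Hspa2, Hspa1l, Hspa4l, Hspa8, Hspa4, Hsph1, Hsp90aa1 and Hsp90ab1, in meiotic and post-meiotic male germ cells. All transcript models annotated with these symbols were taken, which gave 14 of the 11517 annotated transcripts and 8 of their 7244 genes. By what is known of them outside these data, Hspa2, Hspa1l and Hspa4l were treated as the 3 testis-enriched members and the other 5 as broadly expressed. Poly(A) RNA was read directly on nanopores, so that each read was a single mRNA molecule sequenced from its tail, and both a read count and a tail length in nucleotides (nt) were available for every transcript. Samples were pachytene/diplotene (P/D) spermatocytes and round spermatids (RS), sorted by DNA content and light scatter from testes of adult C57BL/6J/B6 mice aged 8 to 12 weeks, with no transgene and no treatment. Each cell type had 3 samples, and the mRNA of 3 mice went into every sample. By the study's reporting summary both cell types were taken from the same 9 mice, so the P/D and RS samples are not from independent animals, and whether samples of the same number came from the same mice is not stated. All P/D samples shared 1 barcoded library and all RS samples shared another, so cell type and library cannot be told apart, and the P/D gate was the less pure by the study's own microscopy.

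HSP70 proteins bind unfolded segments of other proteins in a cycle of ATP hydrolysis and nucleotide exchange. J proteins deliver clients and start hydrolysis, whereas HSP110 proteins and BAG proteins release the nucleotide, and HSP90 dimers take over clients such as kinases and receptors with the help of co-chaperones. In the testis Hspa2 is known as the meiotic HSP70 needed to complete the first division, Hspa1l as an HSP70 of spermatids and Hspa4l as a germ-cell HSP110, while Hsp90aa1 is needed for meiotic prophase in males.

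Total counts ran from 244004 to 474688 reads per sample, and the median tail over all reads was 91.2 to 94.1 nt in P/D and 156 to 160 nt in RS. The labelled cell types were checked by marker genes. The 10 spermatocyte markers summed to 1.24% to 1.31% of reads in P/D and 0.947% to 1.02% in RS, and of these genes 5 were called lower and 3 higher in RS. The 10 round spermatid markers summed to 0.0416% to 0.0545% and 0.299% to 0.341%, with 9 called higher. The 10 elongating spermatid markers were all higher in RS, at 0.192% to 0.259% of reads in P/D and 2.43% to 2.93% in RS. Of 8 spermatogonial markers 2 were listed, with 33 to 48 reads in P/D samples and 4 to 6 in RS samples. Sertoli markers summed to at most 4 reads and Leydig markers to at most 7 reads in any sample, and none of the 6 macrophage markers was listed. The part of these cells in the results that follow was not tested, and in such bulk samples fewer cells of a type and less RNA per cell cannot be told apart.

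The annotated 3′ ends of the transcript models are shown for the members the results turn on. They did not sort by tail change, since ends with and without AATAAA occurred both among models called longer and among models not called. Each line gives the last 30 bases of the transcript model (GRCm38, GENCODE vM21), 5′ to 3′ on the transcript strand, with every match to a polyadenylation hexamer in capitals.
Hspa2 ENSMUST00000080449 (chr12:76406909-76406938, plus strand): tttaaAGTAAAgctgaaattgatctcaaaa
Hspa1l ENSMUST00000007248 (chr17:34979256-34979285, plus strand): ttagtcagggccttactgtatatgtctagc
Hspa4l ENSMUST00000204702 (chr3:40796074-40796103, plus strand): AATAAAtacatattctacctgctacttgaa
Hspa4l ENSMUST00000108086 (chr3:40789555-40789584, plus strand): gtgaagccctagctgaatatagatgtacaa
Hspa8 ENSMUST00000015800 (chr9:40805171-40805200, plus strand): ggaatAATAAAactatttaaattggcacca
Hspa4 ENSMUST00000020630 (chr11:53259814-53259843, minus strand): actAATAAAagaaacctgtcttaacttgaa
Hsp90aa1 ENSMUST00000094361 (chr12:110690605-110690634, minus strand): ccagccagggccataaggagaaaccaaacc
Hsp90aa1 ENSMUST00000021698 (chr12:110691028-110691057, minus strand): aaaaGATAAAtacagaggaGATAAAaagaa
Hsp90ab1 ENSMUST00000024739 (chr17:45567775-45567804, minus strand): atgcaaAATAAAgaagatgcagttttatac

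The last 50 bases of each model were searched on the transcript strand for the common hexamers AATAAA and ATTAAA and then for 4 rarer forms, AGTAAA and TATAAA as well as CATAAA and GATAAA, of which no 2 can match at the same position. AATAAA or ATTAAA was found in 4 of the 10 member transcripts that entered the tail test, against 77.5% of 6901 tested transcripts with a sequence, and any of the 6 hexamers in 7 of 10, against 85.3%. The models of Hspa8, Hspa4 and Hsp90ab1 held AATAAA at 25, 27 and 24 bases from the end. Both Hspa2 models held AGTAAA and neither common form, and AGTAAA was present in 4.65% of the tested transcripts. The Hspa1l model held none of the 6. Such a match is a description of the annotated end, since the files do not say where the reads themselves ended.

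Tail lengths were compared between the cell types first, to ask which chaperone mRNAs took part in the tail lengthening seen across the RS transcriptome. At the gene level 3 of 8 members, Hspa4l, Hspa4 and Hsp90aa1, had longer tails in RS at an adjusted p below 0.05, and none had shorter tails. Over all 5378 genes tested, 54.9% were called longer and 2.14% shorter (limma on the mean tail of each sample, Benjamini-Hochberg adjustment). The median difference, RS minus P/D, was 21.6 nt over the 8 members and 35.0 nt over all genes tested. By role, 1 of 3 testis-enriched members and 2 of 5 broadly expressed members were called longer. At the transcript level 5 of the 10 tested models were called longer and none shorter, against 54.2% and 1.69% of 6990 transcripts. The other 4 models had too few reads for the test.

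**Figure D1:**
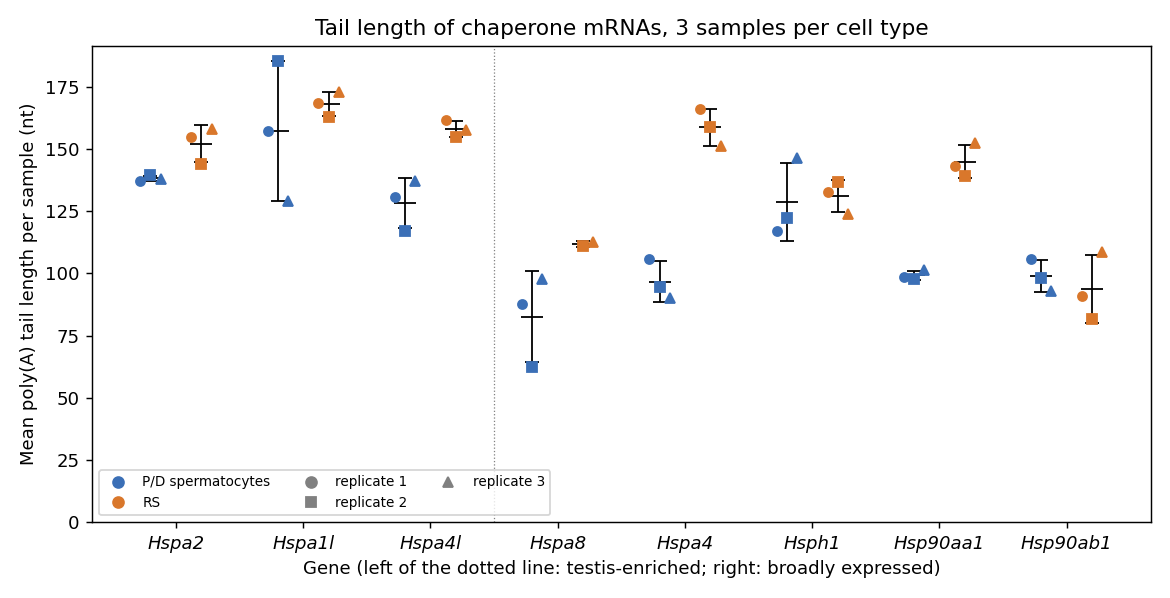
Mean poly(A) tail length in nt of each chaperone gene in each sample, with P/D spermatocytes in blue, RS in orange, marker shape for the replicate and black bars for the mean ± SD. Hspa4 and Hsp90aa1 moved from below 106 nt in every P/D sample to above 139 nt in every RS sample, while Hsp90ab1 stayed between 81.8 and 108 nt in all 6 samples.

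Hspa2, the meiotic HSP70, already carried long tails in P/D. Its mean tail measured 137, 139 and 138 nt in replicates 1, 2 and 3 of P/D, against 155, 144 and 158 nt in those of RS, from 248 to 403 reads per sample. Every RS sample lay above every P/D sample, by little. The difference was 14.0 nt (SE 5.63, n = 3 and 3), with a limma adjusted p of 0.0771, so that it was not called. It passed the threshold where the test was limited to genes with at least 20 reads in every sample (limma adjusted p = 0.0170). The same held with 10 reads in 2 samples of both cell types (0.0399) and without RS replicate 2 (0.0437). Under both read limits the difference stayed at 14.0 nt and only the set of genes tested changed, with 1616 of 1878 and 2535 of 3460 called longer. With a replicate block it was not called (limma adjusted p = 0.144). In P/D its mean of 138 nt was longer than that of 75.0% of the genes tested, and in RS its mean of 152 nt was longer than that of 41.3%.

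Hspa1l, the spermatid HSP70, had the longest mean tail of the 8 members in both cell types. In RS this held in every sample, but in P/D replicate 3 the tails of Hspa2, Hspa4l and Hsph1 were longer. The Hspa1l values in P/D, at 157, 185 and 129 nt, rested on 10, 6 and 6 reads. Those in RS, at 168, 163 and 173 nt, rested on 66, 131 and 98 reads. The P/D samples spread around the RS samples, with 1 of them above and 2 below all 3. The difference of 10.9 nt (SE 14.1) was not called, with a limma adjusted p of 0.547, and its standard error was the widest of the 8 members.

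Hspa4l, the germ-cell HSP110, lengthened. The mean tail was 131, 117 and 137 nt in P/D and 161, 155 and 158 nt in RS, and the groups did not overlap. The difference was 29.8 nt (SE 6.68, limma adjusted p = 0.00972). Its 2 transcript models differ in their 3′ ends, which lie 6519 bases apart in the same last exon on chromosome 3, and their tails lengthened alike, by 30.9 nt (SE 7.55) for the longer model and 32.1 nt (SE 8.66) for the shorter. Without RS replicate 1 the shorter model was not called (27.0 nt, limma adjusted p = 0.0668).

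Hspa4, the broadly expressed HSP110 most closely related to Hspa4l, showed the largest lengthening of the 8 members. Its mean tail was 106, 94.4 and 90.1 nt in P/D and 166, 159 and 151 nt in RS. The gap between the lowest RS and the highest P/D sample was thus far wider than the spread within either cell type. The difference was 61.9 nt (SE 6.80, limma adjusted p = 0.000542), larger than that of 80.9% of the genes tested. Hsph1, the heat-inducible HSP110, gave 6 to 11 reads per sample and tails of 117, 122 and 146 nt in P/D and 133, 137 and 124 nt in RS. The groups overlapped and the difference of 2.49 nt (SE 9.13) was not called (limma adjusted p = 0.837). In RS 14 of the 27 Hsph1 reads came from a retained-intron model. The protein-coding model alone had mean tails of 129 ± 15.7 nt in P/D and 139 ± 18.3 nt in RS (SD, n = 3), also with overlap and from 3 to 6 reads per RS sample.

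Hspa8, the constitutive HSP70 of most cells, had the shortest tails in P/D, at 87.7, 62.3 and 97.7 nt from 22, 36 and 18 reads. RS replicate 1 had no Hspa8 read, and the other RS replicates, at 111 and 113 nt from 16 and 6 reads, lay above all P/D samples. The fit used those 5 samples and gave a difference of 29.3 nt (SE 11.8) with a limma adjusted p of 0.0897. The call appeared without P/D replicate 3 (36.8 nt, limma adjusted p = 0.0450) and with median tails (34.1 nt, limma adjusted p = 0.0492).

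The HSP90 genes parted. Hsp90aa1, the inducible isoform, had mean tails of 98.5, 97.8 and 101 nt in P/D and 143, 139 and 152 nt in RS, from 413 to 871 reads per sample. The difference was 45.7 nt (SE 5.48, limma adjusted p = 0.000748), and both well-covered transcript models lengthened, by 42.4 and 46.8 nt. Hsp90ab1, the constitutive isoform, had 106, 98.0 and 92.7 nt in P/D and 90.8, 81.8 and 108 nt in RS, from 14 to 45 reads per sample. Its groups overlapped, and the difference of -5.07 nt (SE 8.32) was not called (limma adjusted p = 0.635). In P/D its mean tail was longer than that of 24.1% of the genes tested, close to the 24.6% of Hsp90aa1. In RS it was longer than that of only 2.18%, against 31.9% for Hsp90aa1.

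The distribution of the reads was then described by tail class, with bounds at 30, 120 and 210 nt. Of Hspa2 reads 59.2% ± 4.46 (SD, n = 3) fell in the class from 120 to 210 nt in P/D and 63.9% ± 4.59 in RS. For Hspa4 the share went from 24.6% ± 7.57 to 76.9% ± 2.83, for Hsp90aa1 from 27.0% ± 0.663 to 60.2% ± 3.45, and for Hspa4l from 37.4% ± 1.75 to 70.9% ± 2.24. For Hsp90ab1 it went from 30.3% ± 3.59 to 17.3% ± 10.3. Of these 5 genes, each having 10 or more reads per sample, only Hspa4, Hsp90aa1 and Hspa4l had groups that did not overlap upward. Their exact two-sided permutation p was 0.1 each, the smallest that 3 against 3 samples can give. After Benjamini-Hochberg adjustment over the 5 genes it was 0.167. The share of all genes that moved in this way was not counted. Longer tails were the usual outcome, called in 1616 of 1878 genes under the limit of 20 reads per sample (limma). That is another measure on another set of genes, so it gives no background for the 3 among 5. Whether these members stand apart from other genes in this share was not tested. Over all reads the class held 28.5% to 30.3% in P/D samples and 66.4% to 68.3% in RS samples, so Hspa2 stood above the P/D samples as a whole and Hsp90ab1 far below the RS samples.

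**Figure D2:**
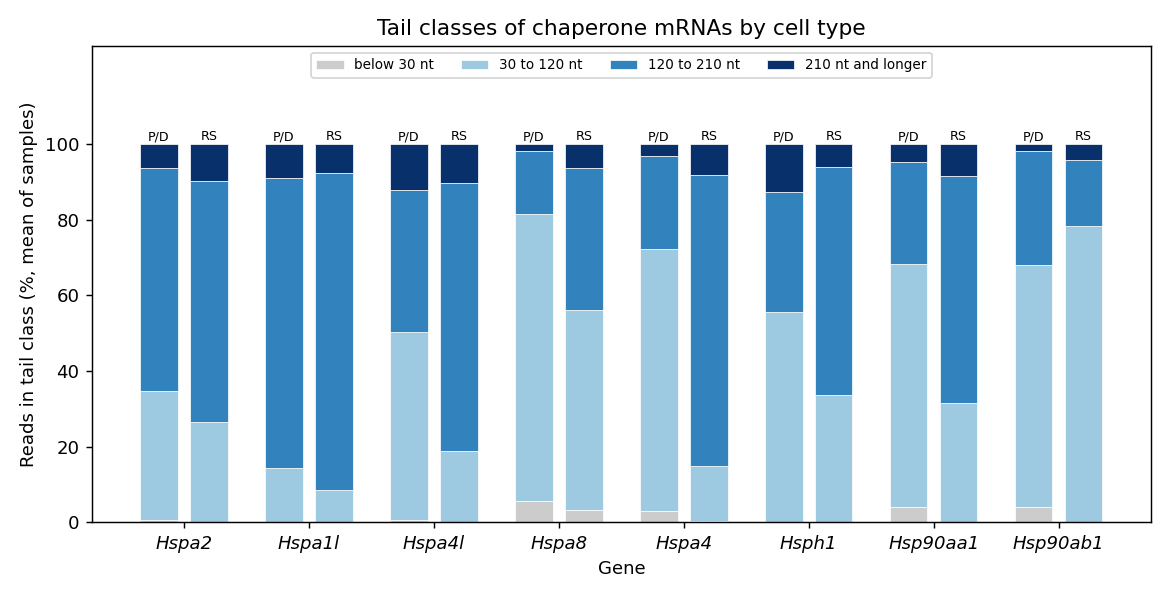
Share of each gene's reads in 4 tail classes, in percent, as the mean over the samples of a cell type (left bar of each pair P/D spermatocytes, right bar RS, Hspa8 in RS over 2 samples). The class from 120 to 210 nt makes up 59.2% of Hspa2 reads in P/D but 24.6% to 30.3% of Hspa4, Hsp90aa1 and Hsp90ab1 reads, and in RS it exceeds 60% for 6 genes, the exceptions being Hspa8 and Hsp90ab1.

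Accumulation was compared next, to ask which chaperone mRNAs were more or less abundant among the mRNAs of the later stage. Of the 7 members that could be tested, Hspa1l and Hspa4l were higher in RS and Hspa2, Hspa8, Hspa4, Hsp90aa1 and Hsp90ab1 were lower (edgeR quasi-likelihood test, adjusted p below 0.05). The background was 34.0% of 4944 genes higher and 32.5% lower. Both genes that rose are testis-enriched members, and all 4 broadly expressed members tested fell. Of the 10 transcript models tested, 3 were higher and 6 lower, against 32.6% and 30.8% of 6005 transcripts. The median log2 fold change, RS over P/D, was -0.53 over the 7 members and -0.03 over all genes tested.

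Levels are given as CPM, the count per 1000000 reads after TMM scaling, and since 1 read is 1 molecule they need no division by length. Hspa1l stood at 41.9, 19.7 and 23.1 CPM in the P/D replicates and at 219, 295 and 300 in the RS replicates. Every RS sample was far above every P/D sample. The fitted change was 9.83-fold (log2 3.30, SE 0.27, edgeR adjusted p = 2.44e-16), the largest of the members. Hspa4l went from 235, 301 and 324 to 404, 558 and 443 CPM, again without overlap, a 1.64-fold rise (log2 0.72, SE 0.15, edgeR adjusted p = 3.27e-05).

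Hspa2 remained abundant but fell. It stood at 1040, 1239 and 1472 CPM in P/D and at 915, 906 and 770 in RS, and the groups did not overlap. The log2 fold change was -0.53 (SE 0.11, edgeR adjusted p = 3.21e-05), a level 1.45-fold higher in P/D. Hspa8 stood at 92.2, 118 and 69.4 CPM in P/D and at 0, 36.0 and 18.3 in RS. The absence of Hspa8 reads in RS replicate 1 allows a level of up to 9.95 CPM there, at 3 reads of the sample's total, for counting error only. The fitted log2 fold change was -2.19 (SE 0.38, edgeR adjusted p = 1.29e-06), and it was -1.69 without RS replicate 1 and -3.21 without RS replicate 2.

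Hspa4 stood at 323, 400 and 355 CPM in P/D and at 249, 324 and 263 in RS, with RS replicate 2 just above P/D replicate 1. The log2 fold change of -0.36 (SE 0.15) passed narrowly (edgeR adjusted p = 0.0338). The call was lost under DESeq2 (-0.32, DESeq2 adjusted p = 0.163) and without P/D replicate 2 (-0.24), P/D replicate 3 (-0.37), RS replicate 1 (-0.26) or RS replicate 3 (-0.28), with protein-coding models only (-0.29) and with the test limited to genes with at least 10 counts in every sample (-0.20). Hsph1 stood at 33.5, 36.0 and 23.1 CPM in P/D and 19.9, 24.7 and 30.6 in RS, overlapping, and had too few reads for the test. Without the retained-intron reads, the protein-coding model went from 8, 11 and 6 reads to 3, 4 and 6, or from 32.6 ± 7.21 to 13.0 ± 5.40 CPM scaled over the transcript table (SD, n = 3). Its RS samples then all lay below the P/D samples, again with too few reads for the test.

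Hsp90aa1 was the most abundant member in every sample, at 2541, 2854 and 2693 CPM in P/D and 1369, 1887 and 1418 in RS. It fell without overlap, by 0.78 on the log2 scale (SE 0.10, edgeR adjusted p = 6.17e-10). Hsp90ab1 stood at 164, 125 and 173 CPM in P/D and 46.4, 81.0 and 61.1 in RS. It also fell without overlap, by 1.23 on the log2 scale (SE 0.24, edgeR adjusted p = 1.20e-05). HSP70 and HSP90 genes have processed copies in the genome, and how far reads of Hspa8 or Hsp90ab1 were shared with such copies was not tested.

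**Figure D3:**
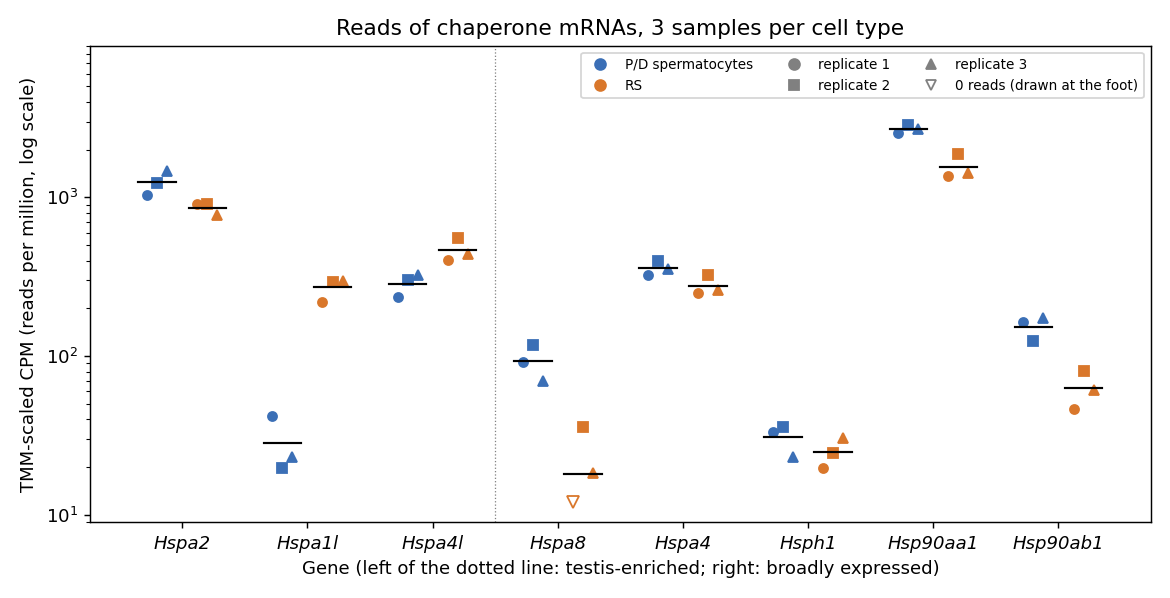
TMM-scaled CPM of each chaperone gene in each sample on a log axis, with P/D spermatocytes in blue, RS in orange and horizontal lines for the group mean. Hspa1l and Hspa4l lie higher in every RS sample than in any P/D sample, Hspa2, Hspa8, Hsp90aa1 and Hsp90ab1 lie lower, and the open triangle marks the RS sample with 0 Hspa8 reads.

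In P/D the order of levels was Hsp90aa1, Hspa2, Hspa4, Hspa4l, Hsp90ab1, Hspa8, Hsph1 and Hspa1l, and the neighbours Hspa4 and Hspa4l, and Hsph1 and Hspa1l, overlapped in their samples. In RS it was Hsp90aa1, Hspa2, Hspa4l, Hspa4, Hspa1l, Hsp90ab1, Hsph1 and Hspa8, with overlap between Hspa4 and Hspa1l and between Hsph1 and Hspa8. Together the 8 genes made up 0.437%, 0.508% and 0.491% of all reads in the P/D replicates and 0.307%, 0.385% and 0.304% in the RS replicates. The 3 testis-enriched genes had 0.418, 0.442 and 0.549 reads for each read of the 5 broadly expressed genes in P/D and 0.913, 0.748 and 0.845 in RS. The mean over genes of the tail was longer for the testis-enriched genes in every sample, by 38.7, 52.3 and 29.1 nt in P/D and by 28.3, 28.4 and 33.1 nt in RS. These role comparisons are descriptions over few genes and were given no test.

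Related members were set against each other within each sample as 5 paralogue pairs, which keeps library depth out of the comparison. Of these pairs 3 set a testis-enriched member against a broadly expressed one. For Hspa4l minus Hspa4 the tail difference was 24.9, 22.8 and 46.9 nt in P/D and -4.64, -3.85 and 6.68 nt in RS. The Hspa4l tail was thus longer than the Hspa4 tail in each P/D sample, and in RS the sign varied among the samples. The change of -32.2 nt did not overlap between groups (exact two-sided permutation p = 0.1, or 0.167 adjusted over the 5 pairs). The log2 read ratio of the same pair went from -0.46, -0.41 and -0.13 to 0.70, 0.78 and 0.75, so that the germ-cell paralogue became the more abundant (change 1.07, exact permutation p = 0.1, adjusted 0.125).

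For Hsp90aa1 minus Hsp90ab1 the tail difference was -7.07, -0.28 and 8.57 nt in P/D and 52.3, 57.5 and 43.7 nt in RS. In P/D the mean tails of both HSP90 genes lay within 8.57 nt of each other in every sample, and in RS they were at least 43.7 nt apart, a change of 50.7 nt (exact two-sided permutation p = 0.1, adjusted 0.167). Their log2 read ratio was 4.13 ± 0.32 in P/D and 4.62 ± 0.19 in RS (SD, n = 3). Hspa2 tails exceeded Hspa8 tails by 49.3, 77.1 and 40.2 nt in P/D and by 32.9 and 45.3 nt in the RS samples that had Hspa8 reads, with overlap and an exact permutation p of 0.4. The log2 read ratio of Hspa1l to Hspa8 went from -1.10, -2.49 and -1.51 to 7.06, 2.99 and 3.92. Hspa8 reads were the more numerous in every P/D sample and Hspa1l reads in every RS sample, although the value of 7.06 rests on the 0.5 added to a count of 0. Hsph1 minus Hspa4 changed by -59.4 nt in tail, at 6 to 11 Hsph1 reads per sample, with the same exact permutation p of 0.1.

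**Figure D4:**
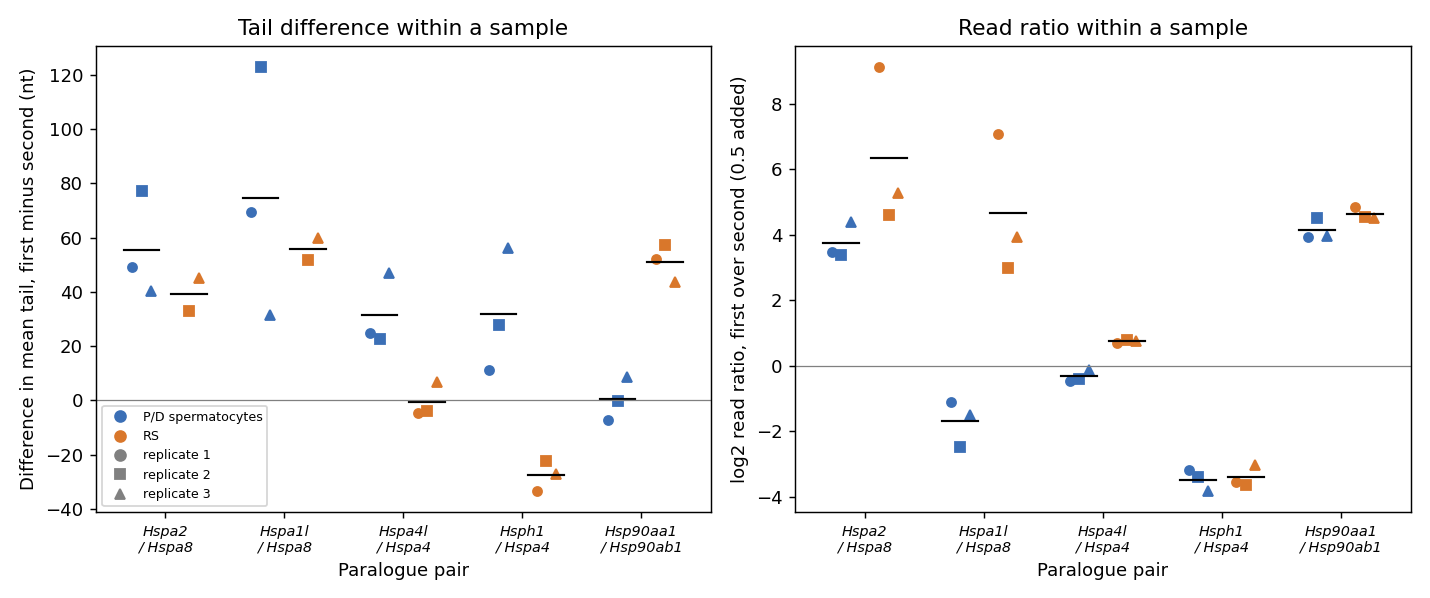
Within-sample comparison of 5 paralogue pairs, with the difference in mean tail in nt on the left, the log2 read ratio on the right, 1 point per sample (P/D spermatocytes blue, RS orange) and lines for the group means. The Hsp90aa1 to Hsp90ab1 tail difference rises from near 0 to 43.7 nt or more in every RS sample, and the Hspa4l to Hspa4 read ratio changes sign.

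The transcript models of a gene were compared for their share of its reads, a comparison chosen after seeing the data. The shorter Hspa4l model, ENSMUST00000108086, ends inside the last exon of the longer. It took 2 of 56, 12 of 92 and 7 of 84 Hspa4l reads in P/D and 27 of 122, 62 of 248 and 30 of 145 in RS. Its share was 3.57%, 13.0% and 8.33% in P/D and 22.1%, 25.0% and 20.7% in RS, without overlap (difference 14.3 percentage points, exact permutation p = 0.1). Its reads rose by 2.04 on the log2 scale (SE 0.34, edgeR adjusted p = 1.90e-06), against 0.46 (SE 0.16, edgeR adjusted p = 0.0116) for the longer model. The call of the longer model was lost without P/D replicate 1 (0.32) or RS replicate 2 (0.38) and with upper-quartile factors (0.32). For Hsp90aa1, whose models end 423 bases apart, the share of the shorter model overlapped between the cell types, at 30.8% ± 3.09 and 35.8% ± 5.25 (SD, n = 3).

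Hsph1 reads were split between a protein-coding model and ENSMUST00000201877, annotated as a retained intron. The retained-intron model had 0 of 8, 0 of 11 and 0 of 6 Hsph1 reads in P/D and 3 of 6, 7 of 11 and 4 of 10 in RS. All RS samples held such reads and no P/D sample did. In sum 0 of 25 P/D reads allows a share of up to 12%, for counting error only. For Hspa2 the intronless model took 18.3% to 20.2% of reads in P/D and 18.1% to 24.6% in RS, and these overlapped. An annotated gene on the opposite strand, Gm10501, overlaps Hspa1l, and whether alignment used the strand is not given in the sources used here.

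Promoters, 250 bases before to 50 after the start (RefSeq, GRCm38.p6), were given for 5 of the 8 members, and a stretch of 60 bases of the Hspa1l window is shown because this gene rose most. The stretch lies at chr17:34972605-34972664 on the plus strand, and the capitals mark TGACGT, the core of the cyclic AMP response element, which starts 71 bases before the start site.
Hspa1l promoter stretch: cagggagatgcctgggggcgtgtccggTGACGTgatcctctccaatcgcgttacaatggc
On either strand TGACGT was found in the Hspa1l window alone of the 5 members and in 7.51% of 32851 promoter windows. The paired heat shock unit GAANNTTC or TTCNNGAA was found in Hsph1 alone and in 15.1% of the windows. The matches are descriptions of the sequence, and no binding was measured.

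Partners of these chaperones were taken as a list of 61 genes by role. Of these 45 were listed, and of 42 tested 28 had longer tails in RS and none shorter (limma, against 54.9% and 2.14% of all genes), with a median difference of 45.2 nt. For accumulation 9 of 42 were higher and 12 lower (edgeR, against 34.0% and 32.5%). J proteins, which deliver clients to HSP70, were called longer in 6 of 12 and higher in 6 of 12, with none shorter and none lower. Dnajb7 and Dnajb8 rose by 3.64 and 3.03 on the log2 scale (edgeR adjusted p = 3.36e-12 and 1.02e-14). Their mean tails were 171 ± 23.4 and 176 ± 22.7 nt in P/D (SD, n = 3) and 161 and 160 nt in RS. The P/D values rested on 1, 4 and 3 reads for Dnajb7 and 9, 7 and 7 for Dnajb8. They are too few to say how long these tails were in P/D, and neither tail difference was called. Dnajc2, a ribosome-bound J protein, and Dnajb1, the heat-inducible partner of HSP70, lengthened by 77.4 and 61.2 nt (limma adjusted p = 0.000262 and 0.000253), with log2 fold changes of -0.03 and 0.23 that were not called. Dnaja1 and Dnajc7 differed by 1.85 and -14.2 nt and were not called.

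Nucleotide exchange factors of the BAG and related families were called longer in 5 of 6, against 54.9% of all genes tested. For accumulation 2 of 6 were higher and 1 lower, against 34.0% and 32.5% of all genes tested. Bag1, Bag5 and Bag6 lengthened by 56.4, 53.3 and 49.8 nt, Bag5 and Bag4 rose by 1.08 and 1.44 on the log2 scale, and Bag1 fell by 0.39. Bag4 had only 8, 8 and 4 reads in the P/D samples. HSP90 partners were called longer in 9 of 16, higher in 1 and lower in 8, against the same shares of all genes. Ppp5c, a phosphatase recruited by HSP90, fell by 3.63 on the log2 scale, from 120 ± 11.2 to 9.02 ± 2.31 CPM (SD, n = 3), and Nudc, a co-chaperone in cell division, fell by 1.15. Fkbp4 and Fkbp8, prolyl isomerases, lengthened by 68.5 and 65.4 nt, and Sugt1, an adaptor, was the 1 that rose, by 0.62. Ptges3, the p23 co-chaperone, differed by -0.07 nt in tail, at 150 nt in both cell types, and St13 by 24.7 nt, neither of them called.

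Relatives in the endoplasmic reticulum and mitochondria were called longer in 4 of 4, against 54.9% of all genes tested. Where the test was limited to genes with at least 20 reads in every sample, as all 4 had, 1616 of 1878 were called longer. Hsp90b1 and Hspa5, the HSP90 and HSP70 of the endoplasmic reticulum, lengthened by 85.9 and 71.4 nt and fell by 1.01 and 0.46 on the log2 scale, and the mitochondrial Hspa9 and Trap1 lengthened by 56.6 and 41.8 nt. Among heat shock factor genes and genes named for binding these factors, 3 of 3 tested were called longer, against the same 54.9%. The differences were 40.0 nt for Hsbp1, 45.5 nt for Hsf5 and 44.9 nt for Hsf2bp, and Hsf2bp fell by 1.26 on the log2 scale. Hsf1 and Hsf4 were not listed, and Hsf2 had too few reads for the test. Of the 6 other HSP70 genes 1 could be tested.

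**Figure D5:**
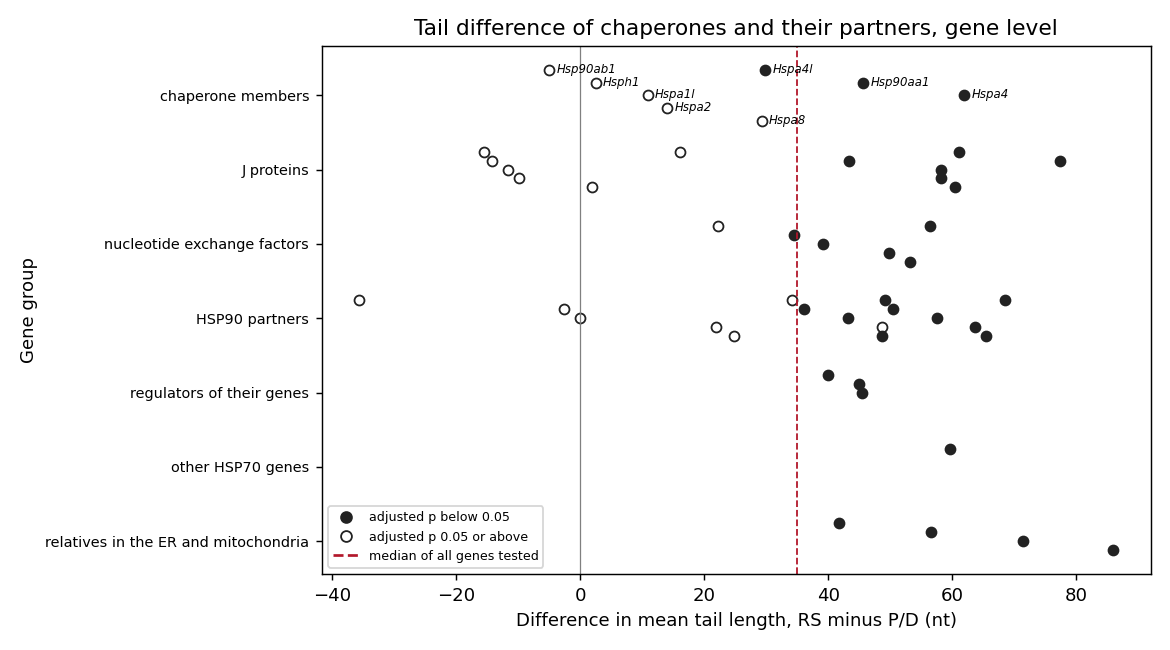
Difference in mean tail, RS minus P/D in nt, for the 8 chaperone genes and 42 tested partners by role, with filled points for an adjusted p below 0.05 (limma) and a dashed line at the median of all genes tested. Of the chaperones, 6 of 8 lie left of the median of 35.0 nt, and only Hspa4 and Hsp90aa1 lie right of it.

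The genes whose levels and tails were most like those of Hspa2 were found among 868 others with at least 50 reads in each of the 6 samples, by Euclidean distance in 4 standardised values, the mean log2 CPM and the mean tail in each cell type. They were Ddx5, Tomm22, Cetn4, Eif5a and 1700029F12Rik, at distances of 0.767, 0.813, 1.04, 1.14 and 1.17. Ddx5, an RNA helicase, had mean tails of 132 and 147 nt, and Tomm22, a mitochondrial import receptor, of 127 and 154 nt. All 5 had mean tails of 125 to 132 nt in P/D, shorter than the 138 nt of Hspa2. Hspa8 had too few reads to be placed in this way.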

How the data were processed

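Per the labels and the study's methods, the authors basecalled direct RNA reads, split them by barcode, aligned them with minimap2 (2.20-r1061 in the submitters' processing notes) to mouse transcripts (mm10, GRCm38) and estimated each read's tail. The deposited table of counts holds whole reads per transcript, unnormalised. The deposited tail table holds 1 length in nt per read, and both gave the same count for all 12114 contigs. Here, members were matched by symbol and read names made unique per gene. Mean tails per sample were tested with limma 3.58.1 where at least 10 reads were present in 2 replicates of a cell type, and counts with edgeR 4.0.16 (filterByExpr, TMM, quasi-likelihood) on R 4.3.3, over the whole table with Benjamini-Hochberg adjustment. Within-sample pairs were tested with exact permutation, 0.5 being added to counts in ratios. P-values measure the spread between pooled samples. Both fits were tested on simulated data. Named partners were the 2 largest and 2 smallest tail differences per role, with at least 20 reads in every sample. The 2 highest and 2 lowest called fold changes per role were also named, with 20 reads per sample needed in the higher cell type only. Nearest genes were sought for Hspa2. Members, lists and tests were chosen with earlier results of these data known. Alternatives covered DESeq2 1.42.0, scaling, filters, tail summaries, blocks and left-out samples.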

Additional observations from a re-analysis of the deposited data

How the results depend on the processing

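The counts of called members held under most alternatives. At the gene level 3 of 8 members were called longer, and 3 to 4 under every alternative, while none was called shorter in any. The members tested and the background changed with the setting. With at least 20 reads in every sample it was 4 of 4 members, against 1616 of 1878 genes. With 10 reads in 2 samples of both cell types it was 4 of 5, against 2535 of 3460. The main fit had 2955 of 5378 genes longer. At the transcript level 5 were called longer, and 4 to 6 in the alternatives. Leaving out each sample gave 3 to 4 longer genes, 4 to 6 longer transcripts, 2 higher and 4 to 5 lower genes, and 2 to 3 higher and 5 to 7 lower transcripts. The minimum of 10 counts in every sample, which removes Hspa1l and Hspa8, left 1 higher and 3 lower genes and 1 higher transcript. The methods' t-test gave 4 longer genes at an unadjusted threshold and 3 after Benjamini-Hochberg. Upper-quartile factors moved the median log2 fold change of all genes from -0.03 to -0.27, and no called member gene changed direction. With a replicate block 3 genes were longer, 2 higher and 5 lower, as without it, and 7 transcripts rather than 6 were lower, and the paired sign-flip test of 3 differences gave an exact p of 0.25 for Hspa4l minus Hspa4, the smallest that 3 pairs allow, so it tests nothing here. Deviations of same-numbered samples had correlations from -0.01 to 0.11 for tails and 0.06 to 0.25 for counts over 1878 genes. Between samples of other numbers they ran from -0.09 to 0.09 and from -0.15 to 0.10. The ranges overlap, although for counts all same-numbered values were positive, so these values do not settle the pairing. The sources do not say that equal numbers mark the same mice, so the numbers were not taken to pair them. With median tails the Hsp90aa1 minus Hsp90ab1 change was 63.8 nt, and with only the best-covered model of each gene the change in log2 read ratio was 0.83 for Hspa4l minus Hspa4 and -0.91 for Hsph1 minus Hspa4. Over left-out samples the tail change ranged from -24.1 to -5.69 nt for Hspa2 minus Hspa8, -40.2 to 5.61 for Hspa1l minus Hspa8, -36.5 to -24.5 for Hspa4l minus Hspa4, -69.8 to -47.2 for Hsph1 minus Hspa4 and 47.0 to 54.8 for Hsp90aa1 minus Hsp90ab1. Depth limits Hspa1l in P/D, Hspa8 in RS and Hsph1 throughout.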
